A study of Mus musculus with 34 samples.

Results

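The Obox genes are a family of homeobox genes clustered on mouse chromosome 7. The window described here holds the cluster and its flanks, from 13900000 to 15950000 in mm10 coordinates (GRCm38), and every region of the deposited count tables that starts inside it. It was chosen by the H3K27ac difference between the B6-13D2 and B6 lines, in which a region upstream of Obox6 had drawn attention. That contrast, and the H3K27ac contrast of D2 with B6 in the same series, which shares the B6 libraries, are therefore given as values with no test. The window held 95 of the 248336 regions of the list shared by 3 of the tables, and 65 of the 96988 regions of the list used for H3K27ac in the separate lines. A filter on low counts left 44 of the 95 for H3K9me3 in the separate lines, 64 for H3K9me3 and 85 for H3K27ac in the repeated libraries, and 63 of the 65 for H3K27ac in the separate lines. GENCODE M21 places 102 genes in the window, of which 18 are protein-coding. They include Obox1, Obox2, Obox3, Obox5 and Obox6, the named members, and Obox7 and Obox8. A further 46 are Obox pseudogenes or noncoding Obox genes, and 2 genes of the family lie elsewhere.

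H3K9me3 and H3K27ac were measured by chromatin immunoprecipitation and sequencing in mouse embryonic stem cells grown in serum with LIF, the MEK inhibitor PD0325901 and the GSK3 inhibitor CHIR99021. B6 is the inbred strain C57BL/6J and D2 is DBA/2J, and each gave 3 separate lines per mark. A second series held libraries of 1 line per genotype, labelled as technical replicates: B6, D2, and the reciprocal congenic lines B6-13D2, full name B6.D2-(rs30079041-rs51756099)/Bakr, which carries a D2 segment of chromosome 13 on a B6 background, and D2-13B6, named D2.B6-(rs29224292-rs13469455)/Bakr in the sample labels but with the end marker rs51756099 in the series description, which carries a B6 segment on a D2 background. For H3K9me3 it had 3 B6, 2 B6-13D2, 2 D2 and 3 D2-13B6 libraries, and for H3K27ac 3 of each genotype. Its B6 and D2 lines are also among the separate lines. Each genotype of this second series is 1 line, so its contrasts, that of D2 with B6 included, compare lines. Their p-values measure the spread between libraries of those lines. The congenic segment lies on chromosome 13 by its name, and chromosome 7 is outside it. Any other difference between 2 lines cannot be told apart from the segment.

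Obox proteins are homeodomain transcription factors made in oocytes and cleavage-stage embryos, where they act at the onset of embryonic transcription. Crx, at the distal side of Obox6, encodes a related homeodomain factor known from photoreceptors, and Crxos is a homeobox gene transcribed from the opposite strand at the Crx locus. The proximal side holds Sult2a genes, which encode hydroxysteroid sulfotransferases known from liver. H3K27ac marks active promoters and enhancers, and H3K9me3 marks heterochromatin, in which stem cells keep many retroelements and clustered gene families silent.

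The region called the leading region here, which had the largest H3K27ac change of the window in the contrast that chose it, lies between Obox6 and Crx, at chr7:15848989-15851080. It is intergenic, and its nearer edge lies 9.31 kb from Obox6, a minus-strand gene at 15833241 to 15839678, on the side of the Obox6 start. The 300 bases of it with the least masked sequence are shown because it is the region the window was chosen for. Capitals mark the 162 bases that the genome does not mask as repeats (GRCm38, plus strand, chr7:15850759-15851058).
Leading region upstream of Obox6: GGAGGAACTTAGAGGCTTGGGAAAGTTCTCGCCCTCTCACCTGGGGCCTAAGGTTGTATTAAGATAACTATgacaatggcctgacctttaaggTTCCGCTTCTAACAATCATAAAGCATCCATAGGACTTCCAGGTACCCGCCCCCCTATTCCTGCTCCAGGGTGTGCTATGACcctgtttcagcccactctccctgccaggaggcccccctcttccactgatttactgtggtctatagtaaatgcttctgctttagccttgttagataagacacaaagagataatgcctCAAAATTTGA

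The 2 regions that flank it carry copies of 1 sequence. Region chr7:15848329-15848926 and region chr7:15854363-15855281 matched over 324 aligned columns in the same orientation, with 97.5% identity and 8 differences, and the copies start 6.37 kb apart. The first stretch of each copy is shown, since both regions changed with the leading region. The capital marks the base that differs.
Copy at chr7:15848592-15848711, plus strand: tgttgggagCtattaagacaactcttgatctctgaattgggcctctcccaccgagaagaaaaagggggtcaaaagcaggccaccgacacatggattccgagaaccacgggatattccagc
Copy at chr7:15854964-15855083, plus strand: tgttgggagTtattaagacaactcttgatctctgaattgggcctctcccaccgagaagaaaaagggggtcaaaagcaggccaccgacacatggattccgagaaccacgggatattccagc

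The promoters of Obox1, Obox2, Obox5 and Obox7 are near copies of one another, which can limit what reads of 75 bases assign to a single gene. Obox3 is less alike, and the share of unique 75-base words was not computed for these promoters. A stretch of 80 bases is shown from the RefSeq promoters (GRCm38.p6) of the 5 coding Obox genes that matched the table, with capitals at the bases that differ from Obox5. Its distance from the annotated start differs between the genes. Obox1 and Obox2 were identical in it, and Obox3 had 18 differences from Obox5. Obox6 and Obox8 are named only.
Obox7 (chr7:14659594-14659673, plus strand): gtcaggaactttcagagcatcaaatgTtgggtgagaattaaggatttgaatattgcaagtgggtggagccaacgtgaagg
Obox2 (chr7:15388820-15388899, plus strand): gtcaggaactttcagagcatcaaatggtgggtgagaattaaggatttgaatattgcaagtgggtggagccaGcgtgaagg
Obox1 (chr7:15547129-15547208, plus strand): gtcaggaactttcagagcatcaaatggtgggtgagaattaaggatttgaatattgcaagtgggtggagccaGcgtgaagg
Obox3 (chr7:15639837-15639916, minus strand): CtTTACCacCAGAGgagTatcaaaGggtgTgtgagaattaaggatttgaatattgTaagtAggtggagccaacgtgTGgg
Obox5 (chr7:15750230-15750309, plus strand): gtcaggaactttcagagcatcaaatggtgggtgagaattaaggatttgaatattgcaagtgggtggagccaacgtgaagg

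Levels are normalised read counts (CPM), scaled by TMM-adjusted library size. Regions differ in width, so levels are compared within a region, and between regions only per kb. Library totals in regions ran from 15444270 to 18272793 for H3K27ac and from 1487862 to 2559262 for H3K9me3 in the separate lines, and from 8735674 to 11543469 and from 1538145 to 2185977 in the repeated libraries. The window itself held 5607 to 8617, 1276 to 2169, 2906 to 6131 and 847 to 1528 counts per library in the same order, so H3K9me3 rests on fewer reads. In the repeated H3K27ac libraries, each genotype had 1 pair of libraries that differed by less than the sampling noise. Each such pair entered as 1 sample, so n = 2 for every line. Among the D2-13B6 libraries, replicate 1 was unlike the other two, with a chi-square per degree of freedom of 2.46 and 2.47 against 1.21 between the others for H3K9me3, and of 2.81 and 2.79 against 0.905 for H3K27ac. Contrasts with D2-13B6 include it, and only some of them are also given without it. For H3K27ac leaving it out leaves 1 D2-13B6 sample, which is assumed to vary like the other lines. The H3K27ac antibody came from abcam for the separate lines and from Cell Signaling Technology for the repeated libraries, so H3K27ac levels are compared within a series only.

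Among the stem cell markers, 9 of 10 genes had an H3K27ac region over the start, with a median of 24.7 CPM per kb of region, against 0.890 to 2.14 CPM per kb for the start regions of the fibroblast, trophoblast, primitive endoderm and germ layer lists. The summed H3K27ac of the stem cell list was 842 to 935 CPM in B6, 1007 to 1074 in B6-13D2, 1061 to 1164 in D2 and 1115 to 1171 in D2-13B6. The summed level of the 4 of 5 fibroblast genes with a start region was 8.51 to 10.4 CPM in B6, 16.7 to 18.6 in B6-13D2, 24.0 to 29.7 in D2 and 12.8 to 27.8 in D2-13B6. That of the 5 trophoblast genes was 17.0 to 20.1, 27.8 to 30.7, 30.3 to 31.7 and 34.0 to 38.9 CPM. That of the 5 early germ layer genes was 8.18 to 9.23, 5.91 to 8.40, 13.8 to 15.2 and 12.4 to 16.1 CPM, and that of 3 primitive endoderm genes ran from 7.63 to 12.7 CPM over all samples. The part of these differences in the results below was not tested.

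At the leading region upstream of Obox6, H3K9me3 was several-fold higher wherever the chromosome 13 segment came from D2, on both backgrounds, and H3K27ac was lower there. In the repeated libraries, H3K9me3 of the leading region at 15848989 was 14.5, 13.7 and 12.5 CPM in B6 and 54.7 and 50.1 CPM in B6-13D2. It was 61.8 and 54.3 CPM in D2 and 8.09, 14.2 and 14 CPM in D2-13B6. The 4 libraries with the D2 segment lay above the 6 with the B6 segment, with no overlap. The difference between B6-13D2 and B6 was 1.94 ± 0.25 on the log2 scale (estimate ± SE), a fold of 3.84, with an adjusted p of 2.75e-10 in edgeR's quasi-likelihood test. The difference between D2 and D2-13B6 was 2.22 ± 0.26, a fold of 4.66, with an adjusted p of 4.27e-12, and 2.00 with an adjusted p of 5.43e-11 without replicate 1 of D2-13B6. The difference between the backgrounds was -0.28 ± 0.38, with an adjusted p of 0.945. D2 exceeded B6 by 2.08 ± 0.25 in these libraries, with an adjusted p of 1.32e-11.

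The same region held, in the separate lines, 12.7, 10.9 and 16.4 CPM of H3K9me3 in B6 and 146, 142 and 141 CPM in D2. The 2 strains did not overlap, and D2 was higher by 3.41 ± 0.21 on the log2 scale, a fold of 10.6, with an adjusted p of 3.39e-16. H3K27ac ran the other way. In the repeated libraries it was 39.2 and 44.4 CPM in B6, 1.26 and 1.48 in B6-13D2, 3.33 and 4.09 in D2, and 36.1 and 32.8 in D2-13B6. Both lines with a D2 segment were near the bottom of the range, and both lines with a B6 segment were high. D2 was lower than D2-13B6 by a log2 change of -3.24 ± 0.18, with an adjusted p of 1.78e-19, and of -3.21 without replicate 1 of D2-13B6. The change from B6 to B6-13D2, which chose the window, was -4.95, and that from B6 to D2 in these libraries was -3.52. The overlapping H3K27ac region of the separate lines, at 15846827 to 15858186, fell from 62.2, 53.7 and 47.7 CPM in B6 to 10.7, 11.2 and 10.1 CPM in D2, a log2 change of -2.36 ± 0.09 with an adjusted p of 6.01e-29.

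**Figure D1:**
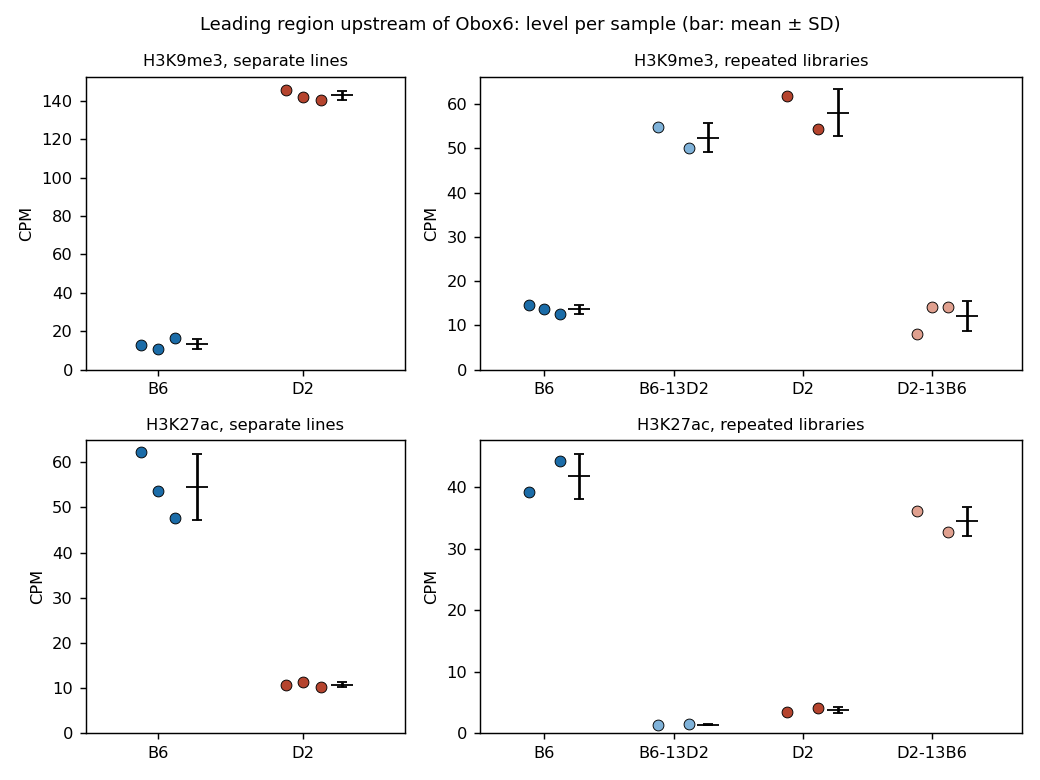
H3K9me3 (top) and H3K27ac (bottom) of the leading region upstream of Obox6, in CPM on a linear axis from 0, for the separate lines (left) and the repeated libraries (right). Each point is a sample and each bar is the mean ± SD of its group. Lines with the D2 segment hold 50.1 to 61.8 CPM of H3K9me3 and at most 4.09 CPM of H3K27ac in the repeated libraries, and lines with the B6 segment at most 14.5 CPM of H3K9me3 and at least 32.8 CPM of H3K27ac. The lower left panel shows the wider overlapping region of the other region list.

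The H3K9me3 calls at the flanking regions with the shared sequence copy were less firm than that of the leading region. Region 15848329 had 5.81, 3.04 and 2.21 CPM in B6, 10.9 and 6.77 in B6-13D2, 11.6 and 9.31 in D2, and 0.899, 1.49 and 3.51 in D2-13B6. Its libraries with the D2 segment again lay above the others. D2 exceeded D2-13B6 by 2.29 ± 0.58, with an adjusted p of 0.0105, which became 0.217 without replicate 1 of D2, 0.0722 without replicate 2 of D2-13B6, 0.0312 without its replicate 1 and 0.197 with only those 2 lines in the fit. B6-13D2 exceeded B6 by 1.24 ± 0.51, which did not pass the threshold, with an adjusted p of 0.356. The separate lines held 5.28, 5.44 and 13.3 CPM in B6 and 23.0, 23.1 and 23.3 CPM in D2, a difference of 1.5 ± 0.32 with an adjusted p of 2.65e-04.

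Region 15854363 held 15.3, 4.56 and 8.84 CPM of H3K9me3 in B6, 25.3 and 21 in B6-13D2, 25.1 and 20.2 in D2, and 5.40, 8.22 and 12.6 in D2-13B6. No library with the B6 segment reached the lowest library with the D2 segment. B6-13D2 exceeded B6 by 1.26 ± 0.32, with an adjusted p of 0.00964 that rose to 0.264 without replicate 2 of B6, 0.0806 without its replicate 3 and 0.289 without replicate 1 of B6-13D2. D2 exceeded D2-13B6 by 1.31 ± 0.34, with an adjusted p of 0.0130 that rose to 0.346 without replicate 1 of D2, and to 0.0548 and 0.0836 without replicates 1 and 2 of D2-13B6. DESeq2 gave 0.324 and 0.165 for these 2 contrasts. D2 was higher by 1.07 ± 0.22, with an adjusted p of 1.26e-04, in the separate lines. H3K27ac was lower in D2 than in D2-13B6 at both flanks, by log2 changes of -2.85 ± 0.25 at 15848329, with an adjusted p of 5.26e-12, and of -3.17 ± 0.23 at 15854363, with an adjusted p of 9.21e-15. Of 75-base words in the genome, 82.8% of those in the leading region, 72.5% of those at 15848329 and 74.7% of those at 15854363 occur once.

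Obox6 was the only coding Obox gene with a region within 1 kb of its start. Region chr7:15838855-15840350 covers its start and overlaps its untranslated region, and every 75-base word in it occurs once in the genome. H3K27ac there was 18.9 and 20.6 CPM in B6, 0.745 and 1.48 in B6-13D2, 4.50 and 5.80 in D2, and 24.3 and 26.1 in D2-13B6. The order from low to high was B6-13D2, D2, B6 and D2-13B6, and no 2 groups overlapped. D2 was lower than D2-13B6 by a log2 change of -2.34 ± 0.18, a fold of 5.05, with an adjusted p of 3.41e-14, and by -2.41 without replicate 1 of D2-13B6. The changes from B6 were -4.28 in B6-13D2 and -1.97 in D2. The start region of the separate lines, at 15838231 to 15840360, held 10.7, 11.2 and 10.5 CPM in B6 and 5.33, 4.25 and 4.38 CPM in D2, a log2 change of -1.22 ± 0.13 with an adjusted p of 1.25e-11. H3K9me3 at the Obox6 start was too low for the test, at 1.80 to 7.47 CPM in the repeated libraries. It was 2.11, 3.26 and 5.13 CPM in B6 and 8.23, 8.73 and 5.26 CPM in D2 among the separate lines.

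H3K27ac was lower over a continuous stretch, not only at the leading region. Between D2 and D2-13B6, 18 consecutive tested regions from 15831165 to 15912798, 81.6 kb in all, were called lower, with log2 changes from -3.24 to -0.92. The stretch covers Obox6, Crx and Crxos. Among the separate lines the run of consecutive lower regions was 32.7 kb with 10 regions, from 15831210 to 15863873, and ended before Crx. In the part from Obox6 to Crx, 11 of 12 tested regions were called lower in D2 than in D2-13B6, against 5.24% of all regions, with a median log2 change of -2.29. In D2 against B6 of the separate lines 10 of 11 were called lower, against 25.0%, with a median of -1.37. Inside an Obox6 intron, at 15837745, the change in the separate lines was -1.92 ± 0.40, with an adjusted p of 7.44e-05, and at 15856291, 8.36 kb from Crx, that between D2 and D2-13B6 was -2.62 ± 0.23, with an adjusted p of 3.13e-12. An example at the Crx side, 15864021 to 15865675, held 8.82 and 8.85 CPM in B6, 0.791 and 1.48 in B6-13D2, 1.39 and 1.82 in D2, and 9.05 and 8.27 in D2-13B6. The lines with the D2 segment were again low, and D2 differed from D2-13B6 by -2.47 ± 0.25. H3K9me3 was narrower: 3 of 6 tested regions of this part were called higher in D2 than in D2-13B6, against 1.81% of all regions, and 2 of 6 in B6-13D2 than in B6, against 1.23%. In the separate lines 3 of 5 were called higher in D2, as were 7728 of 44797 regions genome-wide.

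**Figure D2:**
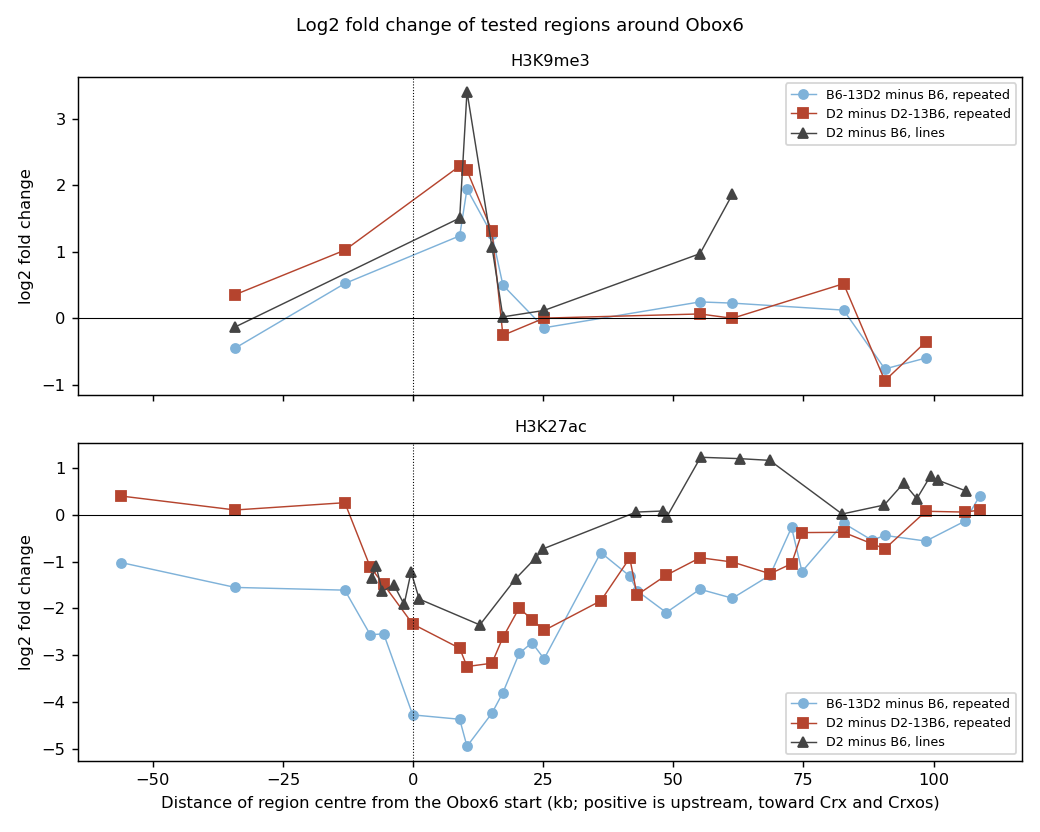
Log2 fold change of H3K9me3 (top) and H3K27ac (bottom) of each tested region near Obox6 and Crx against the distance of its centre from the Obox6 start, in kb, with upstream to the right. Circles are B6-13D2 minus B6, squares D2 minus D2-13B6 and triangles D2 minus B6 in the separate lines. Within the stretch plotted, the H3K27ac trough and the H3K9me3 peak lie at the leading region, 10.4 kb upstream, or next to it (H3K9me3 of D2 minus D2-13B6 is 2.29 at the flank and 2.22 there), and the trough is the wider. For the H3K27ac circles the place of the trough was fixed by the choice of the leading region.

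Over the whole window, H3K27ac was called different between D2 and D2-13B6 at 34 of 85 tested regions, 40%, against a background of 6.67% of the 192158 regions tested genome-wide. Of these, 33 were lower, a direction called at 5.24% of all regions, and 1 was higher. The median log2 change was -0.47 in the window and 0.00 over all regions. Without replicate 1 of D2-13B6, 39 regions of the window were called and 38 of them were lower. In the separate lines, H3K27ac differed at 52 of 63 tested regions, 82.5%, against 49.3% of 96291 regions. Here 42 were lower in D2, against 25.0% of all regions in that direction, and 10 were higher, with a median of -0.94 against -0.01. Nothing is read from the counts in the contrasts that entered the choice of the window. They were 36 of 85 from B6 to B6-13D2, 33 of them lower, where 13.0% of all regions were called and 5.40% lower, and 34 of 85 from B6 to D2 in the repeated libraries, where 28.1% were called.

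H3K9me3 differed at fewer regions. B6-13D2 and B6 differed at 5 of 64 tested regions, 7.81%, against 1.69% of 86874 regions, and 4 of the 5 were higher in B6-13D2, a direction called at 1.23%. D2 and D2-13B6 differed at 8 of 64, 12.5%, against 2.20% of all regions, and all 8 were higher in D2, against 1.81%. The count was 6 without replicate 1 of D2-13B6, and it rested on individual D2-background libraries, since 1 region was called without replicate 1 of D2 and 4 without replicate 2 of D2-13B6. For B6-13D2 against B6 it was 3 without replicate 2 of B6 and 3 without replicate 1 of B6-13D2. D2 and B6 differed at 10 of 64 in the repeated libraries, or 5 without replicate 2 of D2, against 11.3% of all regions, and at 20 of 44 in the separate lines, against 34.7%. The medians of the log2 differences were -0.24, 0.21, -0.23 and -0.17 in the same order, and -0.03, -0.01, 0.04 and 0.00 over all regions tested. The segment effect differed between the backgrounds at 2 of 64 regions, against 0.389% of all regions, and at 0 without replicate 1 of D2.

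At 61 regions of the window both marks could be tested in the repeated libraries. Between D2 and D2-13B6, 7 were called in both marks, and in all 7 H3K9me3 was higher and H3K27ac lower in D2. Genome-wide, 1.64% of the 78531 regions tested in both marks were called in both, 1286 in number, of which 901 had that combination. Nothing is read from the contrasts whose H3K27ac entered the choice of the window. From B6 to B6-13D2, 4 regions of the window passed in both marks, all in opposite directions. From B6 to D2, 8 passed in both, 4 in opposite directions and 4 in the same direction. In the latter contrast 28.1% of all H3K27ac and 11.3% of all H3K9me3 regions were called, and the genome-wide share called in both was not computed for either. The 4 H3K9me3 regions called higher with the D2 segment on both backgrounds, a share of 80% of the 5 and 50% of the 8, where 535 of 86874 regions genome-wide were higher on both, were the leading region, the flank at 15854363 and the regions at 14010306 and 14056792 described with the Sult2a genes. No test of a difference between the backgrounds is given for H3K27ac, because the B6 background entered the choice of the window.

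The other coding Obox genes had no region at their starts in either list. Measured from the GENCODE starts, the nearest region of the shared list lay 6.65 kb from Obox3, 7.08 kb from Obox8, 8.89 kb from Obox7, 17.8 kb from Obox5, 36.7 kb from Obox2 and 36.9 kb from Obox1. In the list of the separate lines these distances were 14.3, 64.7, 34.8, 69.6, 17.8 and 18 kb. The GENCODE start of Obox1, 15388948, lies next to that of Obox2, 15388721, and far from the RefSeq promoter of Obox1 at 15547007 to 15547306. The Obox1 distances hold for the GENCODE start only. Of the 46 Obox pseudogenes and noncoding Obox genes, 1 had a region within 1 kb of its start in each list, Obox4-ps35 in the shared list and Obox4-ps29 in the other. The RefSeq promoters of Obox1 and Obox2 were identical over the 203 bases that aligned, those of Obox5 and Obox7 matched with 97.1% identity over 273 bases, and those of Obox1 and Obox5 with 95.8% over 285. That of Obox3 matched the others over shorter stretches, from 62 bases with Obox2 to 175 with Obox5. How the submitters counted reads that match several places is not given in the sources used here, so levels in the array of Obox copies are uncertain for any 1 gene.

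Inside the array, H3K27ac in the separate lines was called lower in D2 at 23 of 29 tested regions and higher at 2, where 49.3% of all regions were called and 25.0% were lower. The regions lower in D2 include a series from 15158189 to 15273340 and regions in introns of the GENCODE Obox1 and Obox3 models. The GENCODE model of Obox1 runs from 15388948 to 15556866, but its RefSeq promoter lies at 15547007 to 15547306. By that promoter, the Obox1 regions named here lie upstream of the gene and not in its introns. In the GENCODE Obox1 intron, the region at 15438115 to 15441567 held 12.6, 11.4 and 13.8 CPM in B6 and 5.91, 6.67 and 7.09 in D2, a log2 change of -0.94 ± 0.12 with an adjusted p of 1.98e-09. The region at 15450508 to 15453714, within 1 kb of the Obox4-ps29 start, changed by -0.94 ± 0.12 as well, with an adjusted p of 5.59e-09. At 15528913 to 15530078, where Obox1 and Obox3 introns overlap, levels were 4.34, 3.59 and 3.42 CPM in B6 and 1.35, 0.607 and 1.09 CPM in D2, a log2 change of -1.91 ± 0.24 with an adjusted p of 1.61e-09. The strains did not overlap at either intron region with values given. The 2 higher regions, at 14621072 and 14622732, lie at the start of Nlrp5-ps, a pseudogene of an oocyte gene, with log2 differences of 0.85 and 0.62 and adjusted p of 1.20e-05 and 1.12e-04.

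Most of these array regions cannot be placed uniquely. Of the 29, 20 had under 10% of their 75-base words once in the genome, and 17 of those 20 were called lower and 0 higher, with log2 changes from -1.70 to -0.57. The 9 others had 6 lower and 2 higher, from -1.91 to 0.85. The median share of unique words was 3.15% in the array in this list, against 99.2% from Obox6 to Crx. The reference genome is from B6, so copy number and read matching in D2 cannot be told apart from H3K27ac in a contrast of the strains; their part was not tested. In the shared list, whose array regions had a median of 83.8% unique words, D2 and D2-13B6 differed at 4 of 31 tested array regions, 3 lower and 1 higher, with a median log2 change of 0.32. Over all regions 6.67% were called and 5.24% were lower, so nothing is read from this count. The region at 15440290 to 15440477 lies in an intron of the GENCODE Obox1 model, upstream of the RefSeq promoter. It held 6.12 and 6.83 CPM of H3K27ac in B6, 2.37 and 2.95 in B6-13D2, 3.72 and 5.34 in D2, and 3.46 and 2.89 in D2-13B6. Both B6-13D2 samples lay below both B6 samples and overlapped D2-13B6, and the difference between D2 and D2-13B6 was 0.48, with an adjusted p of 0.305.

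**Figure D3:**
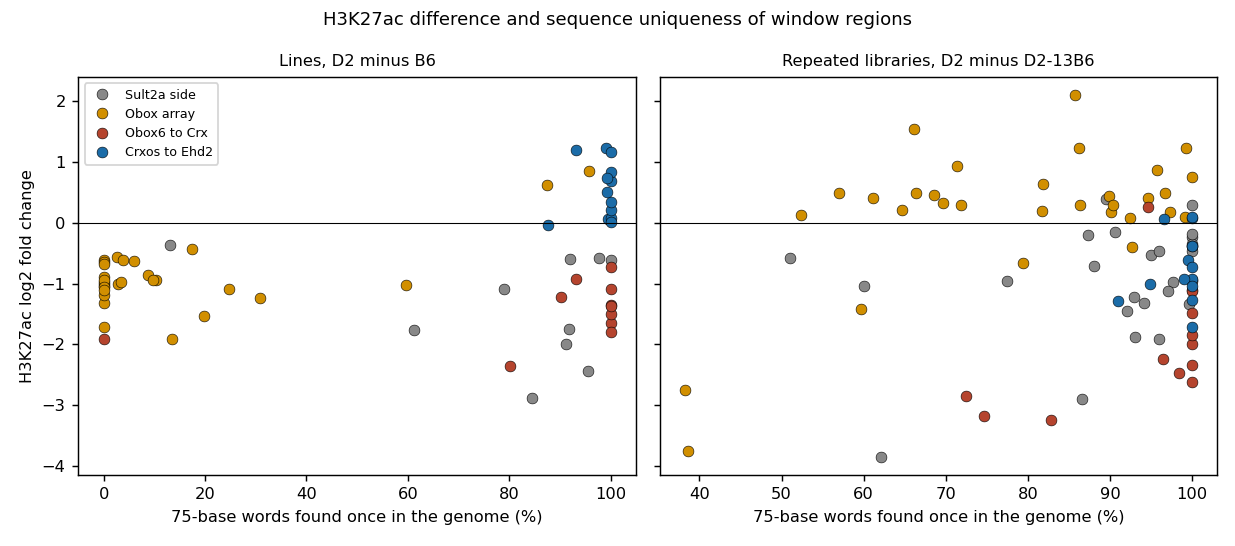
H3K27ac log2 fold change of each tested window region against the share of its 75-base words that occur once in the mouse genome, in percent, for D2 minus B6 in the separate lines (left) and D2 minus D2-13B6 in the repeated libraries (right). Colours give the part of the window. On the left most Obox array regions sit near 0% and below 0, and on the right the lowest Obox6 to Crx regions sit above 70%, with the leading region at 82.8%.

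At the Crx and Crxos starts H3K27ac was lower in D2 than in D2-13B6, and regions inside Crxos also differed between the strains in both marks. At the region near the Crx start, 15880694 to 15881918, D2 was lower than D2-13B6 by a log2 change of -0.92, with an adjusted p of 0.00875, and of -0.83 without replicate 1 of D2-13B6. At the Crxos start, 15882296 to 15883123, the change was -1.71, with an adjusted p of 3.32e-07, and -1.67 without that library. In the strain contrasts, the region within 1 kb of both starts in the separate lines, at 15880742 to 15884336, differed by 0.06, with an adjusted p of 0.694. The changes from B6 to D2 in the repeated libraries, given with no test, were -0.35 near the Crx start and -1.03 at the Crxos start. Further into the Crxos locus, region 15893019 held 17.3 and 20.4 CPM of H3K27ac in B6, 6.33 and 5.91 in B6-13D2, 47.2 and 38.6 in D2, and 85.6 and 78.2 in D2-13B6. All 4 genotypes were separate, with the D2 background above the B6 background and, within each, the D2 segment below the B6 segment. D2 was lower than D2-13B6 by a log2 change of -0.92 ± 0.13, with an adjusted p of 6.63e-07, and of -0.88 without replicate 1 of D2-13B6, while D2 was higher than B6 by 1.22. The overlapping region of the separate lines, at 15891663, held 18.6, 18 and 15.8 CPM in B6 and 46.8, 36.1 and 40.5 in D2, a difference of 1.23 ± 0.09 with an adjusted p of 1.53e-17.

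H3K9me3 at these Crxos regions followed the background and not the segment. At 15893019 it was 7.99, 13.7 and 10.3 CPM in B6, 11.6 and 13.5 in B6-13D2, 22.4 and 26.4 in D2, and 22.5, 20.9 and 26.7 in D2-13B6. The 2 D2-background lines overlapped each other and lay above both B6-background lines. D2 exceeded B6 by 1.20, with an adjusted p of 0.00354 that became 0.159 without replicate 2 of D2 and 0.0508 in DESeq2, and the segment differences were 0.24 and 0.06, with adjusted p of 0.926 and 0.974. Among the separate lines D2 was higher by 0.97 ± 0.24, with an adjusted p of 0.00137. At 15899424 H3K9me3 was 18.2, 14.5 and 16.2 CPM in B6, 17.8 and 20.3 in B6-13D2, 40.3 and 38.8 in D2, and 41.4, 46.3 and 31.6 in D2-13B6. D2 exceeded B6 there by 1.27 ± 0.26, with an adjusted p of 1.17e-04, and by 1.86 ± 0.21 in the separate lines, with an adjusted p of 2.53e-09. H3K27ac at 15899424 was lower in D2 than in D2-13B6 by a log2 change of -1.01 ± 0.15, with an adjusted p of 2.80e-06, and higher in D2 than in B6 by 1.20 ± 0.09 at the overlapping region of the separate lines, with an adjusted p of 4.83e-16. At 15893019, 99.0% of the words are unique. From Crxos to Ehd2, a gene of membrane trafficking, 8 of 13 tested H3K27ac regions were called higher in D2 in the separate lines, where 23396 of 96291 regions genome-wide were. Between D2 and D2-13B6, 7 of 14 were called lower, against 5.24% of all regions. At Nop53, a ribosome biogenesis gene at the edge of the window, the difference between D2 and D2-13B6 was 0.06, with an adjusted p of 0.89.

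Away from Obox6, H3K9me3 was lower in D2-13B6 than in the other 3 lines at 3 regions, and at 2 of them H3K27ac was high in that line alone. At chr7:14403346-14404452, 6.23 kb from Sult2a8, H3K27ac was 2.86 and 2.46 CPM in B6, 0.419 and 0.461 in B6-13D2, 1.06 and 0.796 in D2, and 14.9 and 13.2 in D2-13B6. The D2-13B6 line alone was high, and B6 came next, above both lines with the D2 segment. D2 was lower than D2-13B6 by a log2 change of -3.84 ± 0.25, a fold of 14.4, with an adjusted p of 2.05e-16. H3K9me3 there was 26.9, 32.0 and 27.3 CPM in B6, 28.7 and 23.7 in B6-13D2, 25.1 and 20.9 in D2, and 8.09, 9.71 and 7.02 in D2-13B6. The D2-13B6 line was low in all 3 libraries, and D2 exceeded it by 1.46 ± 0.33, with an adjusted p of 0.00259 that became 0.175 without replicate 1 of D2 and 0.0051 without replicate 1 of D2-13B6. B6-13D2 and B6 differed by -0.13, with an adjusted p of 0.952, and the difference between the backgrounds was -1.59, with an adjusted p of 0.0501, and of 0.0485 without replicate 1 of D2-13B6.

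Region chr7:15730959-15731685, 18.4 kb from Obox5, had a similar pattern, but B6 and D2 overlapped in H3K27ac. Its H3K27ac was 1.45 and 2.35 CPM in B6, 0.326 and 0.369 in B6-13D2, 1.67 and 0.909 in D2, and 20.6 and 17.5 in D2-13B6. The D2-13B6 line was again the only high line, and D2 was below it by a log2 change of -3.75 ± 0.24, with an adjusted p of 7.40e-17. Its H3K9me3 was 36.3, 28.9 and 25.1 CPM in B6, 26.7 and 32.5 in B6-13D2, 26 and 27.9 in D2, and 10.8, 12.7 and 12.6 in D2-13B6. D2 exceeded D2-13B6 by 1.15 ± 0.30, with an adjusted p of 0.0143 that became 0.0276 without replicate 1 of D2-13B6, and the difference between the backgrounds was -1.17, with an adjusted p of 0.241. Only 38.6% of its 75-base words, and 62.1% of those near Sult2a8, occur once in the genome.

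The third, chr7:13989669-13990749, lies within 1 kb of the start of Sult2a4. H3K9me3 there was 31.2, 27.4 and 25.1 CPM in B6, 21.9 and 20.3 in B6-13D2, 24.2 and 17.1 in D2, and 6.30, 3.73 and 7.02 in D2-13B6. The D2-13B6 libraries were below all others. D2 exceeded D2-13B6 by 1.83 ± 0.37, with an adjusted p of 3.63e-04, and of 0.117 without replicate 1 of D2 and 0.000581 without replicate 1 of D2-13B6. B6-13D2 and B6 differed by -0.40, with an adjusted p of 0.724, and the difference between the backgrounds was -2.23 ± 0.45, with an adjusted p of 0.00224, and of 0.204 without replicate 1 of D2. H3K27ac was 2.16 and 3.36 CPM in B6, 0.605 and 0.831 in B6-13D2, 0.389 and 1.02 in D2, and 5.18 and 4.11 in D2-13B6. D2-13B6 was highest and B6 came next, above both lines with the D2 segment. B6 was closer to D2-13B6 than near Sult2a8 or Obox5, so this mark did not set D2-13B6 alone apart. D2 was lower than D2-13B6 by a log2 change of -2.89 ± 0.36, with an adjusted p of 4.15e-08.

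These 3 regions share sequence. The regions near Sult2a8 and Obox5 matched with 92.9% identity over 658 aligned columns, and the region at the Sult2a4 start matched them with 88.7% over 460 and 85.4% over 467. Another copy, in the region at 14056792 described with the Sult2a genes, matched them with 88.7% over 371, 86.7% over 315 and 90.5% over 433 in the same order. Its H3K9me3 did not have their pattern: it was higher with the D2 segment on both backgrounds. The leading region upstream of Obox6 held no such match to them. A stretch of 100 bases common to the 3 is shown, with capitals at the 4 and 11 bases that differ from the copy near Sult2a8.
Near Sult2a8 (chr7:14403781-14403880, plus strand): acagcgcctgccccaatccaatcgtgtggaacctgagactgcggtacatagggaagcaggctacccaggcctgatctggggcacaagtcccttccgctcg
Near Obox5 (chr7:15731155-15731254, plus strand): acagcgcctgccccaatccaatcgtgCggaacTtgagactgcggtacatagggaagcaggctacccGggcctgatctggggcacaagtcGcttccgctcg
At the Sult2a4 start (chr7:13990083-13990182, minus strand): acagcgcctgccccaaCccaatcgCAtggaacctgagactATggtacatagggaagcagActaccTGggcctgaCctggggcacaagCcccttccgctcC

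**Figure D4:**
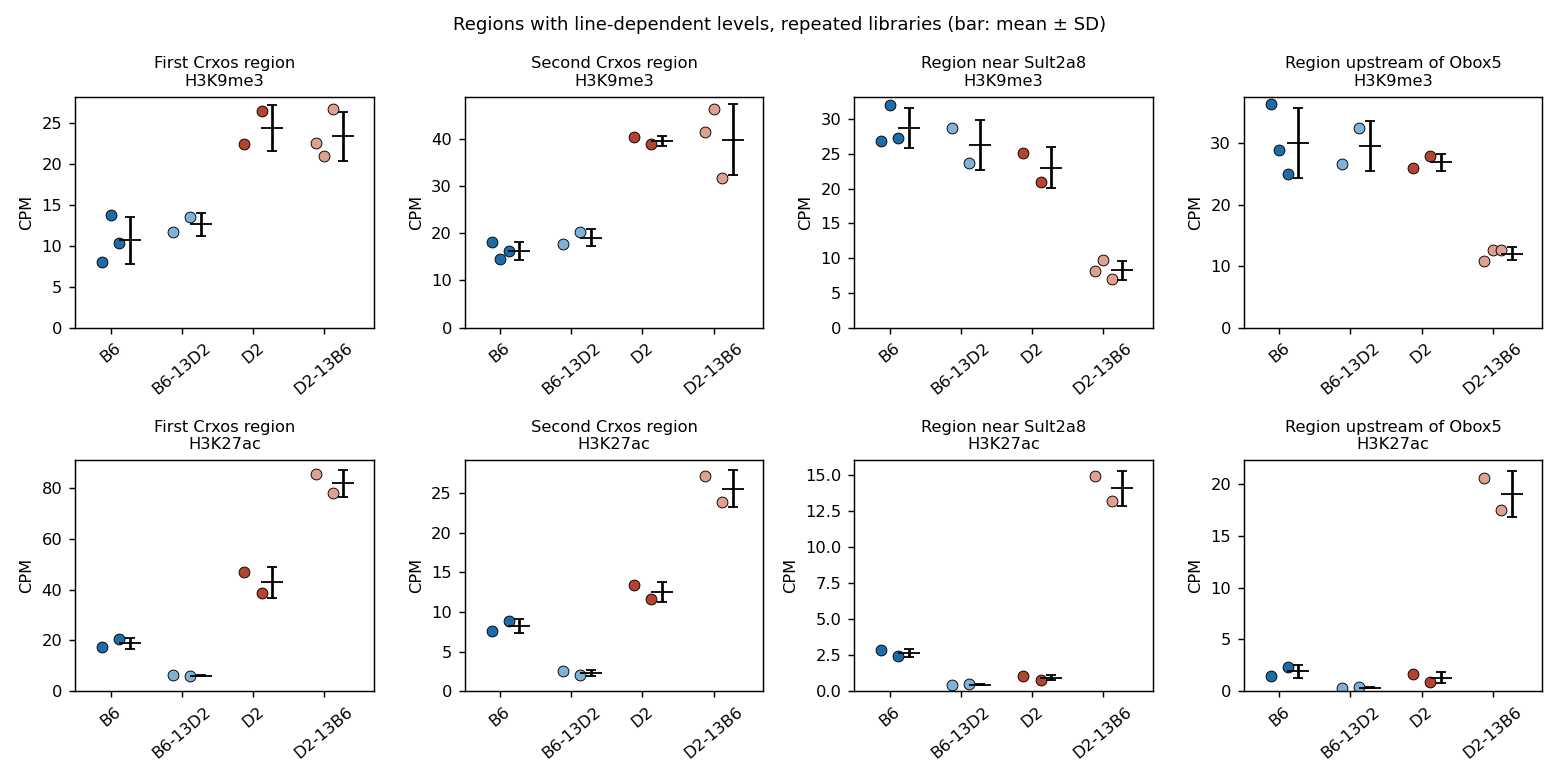
H3K9me3 (top) and H3K27ac (bottom) in the repeated libraries, in CPM on linear axes from 0, at 2 Crxos regions (starting at 15893019 and 15899424), the region near Sult2a8 and the region 18.4 kb from Obox5. Each point is a sample and each bar is the mean ± SD. H3K9me3 at Crxos is higher in both D2-background lines, and at the other regions D2-13B6 stands apart, with H3K9me3 at 7.02 to 12.7 CPM and H3K27ac at 13.2 to 20.6 CPM.

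Among the Sult2a genes, region chr7:14010306-14011489, 20.7 kb from Sult2a4, followed the segment as the leading region did. H3K9me3 was 3.63, 3.80 and 2.95 CPM in B6, 15.1 and 22.3 in B6-13D2, 10.7 and 15.5 in D2, and 3.60, 3.73 and 7.02 in D2-13B6. The libraries with the D2 segment were above all others. B6-13D2 exceeded B6 by 2.40 ± 0.40, with an adjusted p of 2.35e-06. D2 exceeded D2-13B6 by 1.42 ± 0.42, with an adjusted p of 0.0453, a call lost without replicate 1 of D2 (0.111), replicate 2 of D2 (0.478), replicate 1 of D2-13B6 (0.0982) or replicate 2 of D2-13B6 (0.224), and under other scalings or with no filter, at 0.0546 to 0.0974. H3K9me3 in the separate lines was 6.34, 10.9 and 18.5 CPM in B6 and 38.7, 37.4 and 47.4 in D2, a difference of 1.77 ± 0.27 with an adjusted p of 1.59e-06. H3K27ac was 11 and 11.6 CPM in B6, 4.61 and 4.15 in B6-13D2, 2.95 and 3.98 in D2, and 11.1 and 13.5 in D2-13B6. D2 was lower than D2-13B6 by a log2 change of -1.90 ± 0.20, with an adjusted p of 6.89e-10, and by -2.06 without replicate 1 of D2-13B6. At this region 95.9% of the words are unique.

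Region chr7:14056792-14057468, 9.98 kb from Sult2a3, had H3K9me3 differences of 1.34 ± 0.32 between B6-13D2 and B6 and of 1.48 ± 0.41 between D2 and D2-13B6, with adjusted p of 0.00471 and 0.0233. The first became 0.398 without replicate 2 of B6-13D2, and the second 0.649 without replicate 1 of D2, 0.119 without replicate 2 of D2-13B6 and 0.0463 without its replicate 1. DESeq2 gave 0.237 and 0.163. In the separate lines D2 was higher by 1.03 ± 0.26, with an adjusted p of 0.00191, while the H3K27ac region overlapping it showed a log2 change of -2.88 ± 0.30, with an adjusted p of 8.08e-12. The region at 14119387 to 14121350, in a Sult2a3 intron, had the highest mean H3K9me3 of the window over all samples, by CPM not divided by width. It held 159.5, 129 and 125 CPM in the B6 lines and 119, 107 and 106 CPM in the D2 lines, where the leading region was higher. The difference at the Sult2a3 intron was -0.32 in the separate lines, with an adjusted p of 0.101, and -0.76 in the repeated libraries, with an adjusted p of 0.0153 that became 0.119 without replicate 1 of B6, 0.249 without replicate 2 of D2 and 0.0831 in DESeq2.

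Within the array, other H3K9me3 regions had other patterns. At chr7:15329411-15329890, 58.8 kb from Obox2, H3K9me3 was 31.2, 22.1 and 28.0 CPM in B6, 19.8 and 24.4 in B6-13D2, 7.16 and 8.53 in D2, and 6.30, 11.2 and 8.43 in D2-13B6. The D2 background was low whichever segment it carried, and D2 differed from B6 by -1.77 ± 0.34, with an adjusted p of 3.35e-05, and by -1.26 ± 0.25 in the separate lines, with an adjusted p of 7.06e-05. At chr7:14875800-14876654 H3K9me3 was 7.99, 12.9 and 4.42 CPM in B6, 0.684 and 2.03 in B6-13D2, 13.4 and 17.8 in D2, and 7.20, 9.71 and 19.0 in D2-13B6. Both B6-13D2 libraries had 3 counts or fewer, so B6-13D2 was at least 4.14-fold lower than B6 against a floor of 3 counts per library. The adjusted p was 0.00694, and 0.167 without replicate 2 of B6, 0.361 without replicate 1 of B6-13D2 and 0.188 in DESeq2. The difference between the backgrounds, -2.90 ± 0.73, had an adjusted p of 0.0351. The latter call was lost, at 0.0504 to 0.466, on leaving out any 1 library other than replicate 3 of B6 or of D2-13B6, and was lost with no filter, at 0.0729. Region 14595275, in an intron of Nlrp5-ps, held 13.1, 11.4 and 8.1 CPM of H3K9me3 in B6 and 2.69 and 3.10 in D2, a log2 change of -1.87 with an adjusted p of 0.00864, and of 0.0804 without replicate 1 of B6 and 0.0748 and 0.0901 without replicates 1 and 2 of D2. Its change in the separate lines was -0.81, with an adjusted p of 0.0256.

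Other regions on the Sult2a side differed by strain. H3K9me3 at 13900080, 9.34 kb from Sult2a4, was 16.9, 9.79 and 12.3 CPM in the B6 lines and 1.65, 3.12 and 0.752 CPM in the D2 lines, a log2 change of -2.69 ± 0.50 with an adjusted p of 3.60e-05. At 14199458, 22.6 kb from Sult2a6, it changed by -1.53 ± 0.38, with an adjusted p of 0.00131. The strains did not overlap at either region. H3K27ac in the separate lines changed by -2.44 ± 0.13 at 14009419, which overlaps the region at 14010306, and by -1.99 ± 0.21 at 14019059, 29.5 kb from Sult2a4, with adjusted p of 6.61e-23 and 1.23e-11. The shared-list region at 14019854 was lower in D2 than in D2-13B6 by a log2 change of -1.87 ± 0.46, with an adjusted p of 0.00497, a call lost in DESeq2. At 14112411 to 14122332, over a Sult2a3 exon, the change was -0.57, with an adjusted p of 1.61e-08.

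The related gene lists were described by the regions over their starts. Of the 18 protein-coding genes of the window, 7 had an H3K27ac region at the start in the shared list, and 4 were lower in D2 than in D2-13B6, against 5.24% of all regions: Obox6, Crx, Crxos and Sult2a4. Among the separate lines 7 had one, with Obox6 and Sult2a3 lower in D2 and Nop53 higher, a share under the 49.3% of all regions called. Of 19 PRD-like homeobox genes, the class related to Obox, 15 had a start region for H3K27ac, of which Pitx1 was higher and Hesx1 and Crx, itself in the window, were lower in D2 than in D2-13B6, where 6.67% of all regions were called. Of the genes of the 2-cell stage, 12 of the 26 found had one, and none passed the test between D2 and D2-13B6. From B6 to B6-13D2, given with no test, the log2 changes of the 12 ran from -1.64 at Zscan4a to 0.12 at Dppa2, with a median of -0.74. Of the 6 with a start region in the separate lines, Dppa2, Nelfa and Zfp664 were higher in D2 and Tdpoz5 was lower, where 49.3% of all regions were called. Of 15 oocyte genes 8 had one, and none passed between D2 and D2-13B6. For H3K9me3 no gene of the PRD-like, 2-cell-stage and oocyte lists was called between D2 and D2-13B6, with 12, 7 and 7 start regions. The lists were drawn up with earlier results of these data known.

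Among the regions outside the window whose H3K27ac was most like that of the leading region, by Pearson's r of log2 CPM over the 8 samples of the repeated libraries out of 21528 regions, 4 lay in a Sipa1l3 intron on chromosome 7 (29457661 to 29459167, r of 0.989), 8.17 kb from Fam3b on chromosome 16 (97522989 to 97524692, 0.989), 5.84 kb from Nxph3 on chromosome 11 (95501183 to 95504005, 0.989) and in a Sv2b intron on chromosome 7 (75127087 to 75129036, 0.987). The samples share lines and libraries, so these values only describe likeness.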

How the data were processed

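The deposited values are raw counts that the authors made for each region, in 4 tables covering 34 samples in 12 groups; 2 columns that matched no sample were not used. Per the submitters' processing notes, the work used mm10, Trimmomatic 0.39, HISAT2 2.2.1, MACS 1.4.2, bedtools 2.9.2 and edgeR. Reads were 75 bp, per the labels' protocols. Starts are printed as the region name's start plus 1.

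From the counts, all regions of a table were fitted in edgeR 4.0.16 (R 4.3.3) with TMM scaling, filterByExpr (minimum count 10, total 15) and the two-sided quasi-likelihood F-test. Benjamini-Hochberg adjustment covered the whole table, and a call is an adjusted p under 0.05. The 4 lines of the repeated libraries shared 1 fit. Library pairs with a chi-square per degree of freedom under 1, over regions with at least 40 counts, were summed. The fit was tested on simulated data. Alternatives included DESeq2 1.42.0, other scalings and filters, and left-out libraries. Annotation was GENCODE M21 with blastn 2.17.0+ alignments.

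Regions named were the 5 largest called differences per contrast and mark, regions called in both marks or in both series, the highest level, and the 5 most alike, of which 1 is not reported here. Regions over starts of Crx, Crxos, Nop53 and the Obox genes were added. The window, members and lists were chosen with earlier results of these data known.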

Additional observations from a re-analysis of the deposited data

Results flagged for a closer look

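At 2 regions the H3K9me3 effect of the chromosome 13 segment differed between the backgrounds, by edgeR's test of the interaction. At the Sult2a4 start (13989669 to 13990749) the value was -2.23 on the log2 scale: D2-13B6 was below D2, while B6-13D2 and B6 did not pass the test. In the Obox array (14875800 to 14876654) it was -2.90: B6-13D2 was below B6, while D2 and D2-13B6 did not pass the test. With at most 3 samples a group, single values were not tested for outliers within a group.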

How the results depend on the processing

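The counts of called H3K9me3 regions were the least stable. In the separate lines the 20 regions called became 13 with no filter on low counts, 12 with a mean of at least 20 counts and 12 in DESeq2. In the repeated libraries B6-13D2 against B6 gave 1 region with that mean filter and 2 in DESeq2, and 3 to 5 with a library left out. D2 against D2-13B6 gave 4 and 3, and 1 to 8. D2 against B6 gave 6 and 5, and 5 to 9. The difference between backgrounds gave 1 with no filter and 1 in DESeq2, and 0 to 2. For H3K27ac in the repeated libraries DESeq2 called 23 regions of B6-13D2 against B6 and 21 of D2 against D2-13B6. Left-out libraries gave 28 to 36, 25 to 39 and, for D2 against B6, 23 to 35. In the separate lines they gave 16 to 19 for H3K9me3 and 47 to 54 for H3K27ac. Over single regions, 1309 values kept their direction and side of the threshold, 59 lost and 13 gained a call, 9 moved and 0 reversed.

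Scaling to library totals in place of TMM moved the median of all H3K27ac regions of B6-13D2 against B6 by -0.143 and the share of calls that were higher from 58.5% to 38.5%; the window went from 3 higher and 33 lower to 3 and 39. For D2 against B6 the shift was -0.154 and the share went from 52.3% to 40.3%. For H3K9me3 in the separate lines the shift was 0.160, the share went from 49.8% to 61.5%, and the window from 9 higher and 11 lower to 10 and 7.

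Same-numbered libraries did not deviate together, with correlations from -0.0756 to 0.172, so the numbers were not taken as pairs. With the replicate number as a block, the H3K9me3 counts were 17 in the separate lines and 5, 8, 10 and 3 in the repeated libraries, and the H3K27ac counts were 52, and 41, 39 and 41 with all libraries separate. The repeated H3K9me3 libraries held 847 to 1528 counts in the window.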
